A study of Homo sapiens with 15 samples.

Results

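The genes described here are 43 nuclear receptors and cofactors, followed in RNA from HepG2, a human hepatocellular carcinoma line that keeps many hepatocyte functions. They were chosen by name: 37 nuclear receptors, the ligand-activated factor AHR, and the 5 cofactors NCOA1, NCOA2, NCOA3, NCOR1 and NRIP1, out of 57773 genes listed in each library's table. All 43 names were found and 32 had enough reads to be tested, among 12567 tested genes in all. Cells were exposed for 72 h to 25 or 250 µM of tris(2-chloroethyl) phosphate (TCEP), to 2.5 or 25 µM of tris(2-chloroisopropyl) phosphate (TCIPP), or to 0.1% of their solvent alone, dimethyl sulfoxide (DMSO). Each of the 5 groups had 3 libraries, and each of the triplicates was seeded, treated and extracted apart. The compounds belong to the chlorinated organophosphate flame retardants, and their names give the structural difference: chloroethyl arms in TCEP, and branched chloroisopropyl arms, with an added methyl group each, in TCIPP. All groups share 1 tumour line kept under 25 passages in medium with fetal bovine serum.

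Nuclear receptors are transcription factors that bind small lipophilic ligands such as steroids, retinoids, thyroid hormone, fatty acids, oxysterols or xenobiotics, and several, called orphan receptors, have no established ligand. Many bind DNA at short hexamer motifs as partners of a retinoid X receptor (RXR), recruiting corepressors such as NCOR1 without an activating ligand and coactivators of the NCOA family with one. In liver they set drug metabolism, lipid and glucose handling and the response to glucocorticoids, and their activity depends on ligand as much as on their own mRNA.

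Total exon reads ran from 5.35 to 26.8 megareads per library. Levels below are CPM, each gene's exon reads per megaread of its library's exon reads. Levels of different genes are set beside each other only as the deposited RPKM. That measure divides by exon length and is not scaled to the same read total as the CPM. A count of 3 reads was worth 0.112 to 0.560 CPM, depending on the library. All 8 hepatocyte markers examined were tested, with a summed level of 42895 to 54357 CPM over the libraries, while markers of fibroblasts, immune cells and endothelium summed to at most 2.73 CPM per list and library, and the fibroblast genes COL1A2, DCN and LUM had 0 reads.

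In the fit without the replicate number as a block, no member passed edgeR's quasi-likelihood test at an adjusted p under 0.05 in any of the 7 comparisons. Against DMSO, 0 of 32 members passed with TCEP at 25 µM and at 250 µM, where 0% of all tested genes passed in each, 0 of 32 with TCIPP at 2.5 µM (0.0955% of all genes), and 0 of 32 with TCIPP at 25 µM (0.00796% of all genes). Between concentrations, 0 of 32 passed for TCEP at 250 over 25 µM and for TCIPP at 25 over 2.5 µM, where 0% of all genes passed, and 0 of 32 passed for TCIPP against TCEP at the shared 25 µM (0.0398% of all genes). At an unadjusted p under 0.05 there were 0 to 6 members per comparison, beside 5.2% to 18.1% of all genes. DESeq2, run as an alternative, passed 0 to 2 members per comparison, beside 14 to 330 of all genes. It started from every gene with a read, so these counts give no share comparable with those above. In the comparisons between treated groups, where same-numbered libraries deviated together, the fit with the replicate block passed PPARG for TCIPP at 25 over 2.5 µM and NCOA3, NR4A1 and PPARG for TCIPP over TCEP at 25 µM, and no member for the TCEP step. The members with the smallest p-values were PPARG, PPARD, NR4A1, NR3C1, NR1I2, THRB and NCOA3, and their differences were small. The median 95% interval of a member's log2 fold change reached 0.23 to 0.24 to either side.

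The promoters of PPARG, PPARD and NCOA3 are shown because these genes had the smallest p-values against DMSO at 2.5 µM TCIPP (PPARG and PPARD) and between compounds at 25 µM (NCOA3 and PPARG). Each runs from 250 bases before to 50 bases after the start that RefSeq gives for the gene, in GRCh38.p14, on the gene's own strand. Those coordinates belong to another build than the deposited tables, which use hg19. A gene can have further start sites that these windows do not show, as PPARG does. Capitals mark AGGTCA, the hexamer that nuclear receptors bind, or GCGTG, the core bound by AHR and by hypoxia factors, read on either strand, so that TGACCT and CACGC also count. PPARG lies at chr3:12287118-12287417 on the plus strand, PPARD at chr6:35342308-35342607 on the plus strand and NCOA3 at chr20:47501637-47501936 on the plus strand.
PPARG: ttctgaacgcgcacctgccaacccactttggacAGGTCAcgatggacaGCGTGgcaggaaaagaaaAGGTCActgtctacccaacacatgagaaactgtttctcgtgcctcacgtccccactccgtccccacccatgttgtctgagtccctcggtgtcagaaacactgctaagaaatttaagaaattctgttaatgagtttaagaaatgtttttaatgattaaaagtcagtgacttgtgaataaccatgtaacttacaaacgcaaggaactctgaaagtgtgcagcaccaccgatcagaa
PPARD: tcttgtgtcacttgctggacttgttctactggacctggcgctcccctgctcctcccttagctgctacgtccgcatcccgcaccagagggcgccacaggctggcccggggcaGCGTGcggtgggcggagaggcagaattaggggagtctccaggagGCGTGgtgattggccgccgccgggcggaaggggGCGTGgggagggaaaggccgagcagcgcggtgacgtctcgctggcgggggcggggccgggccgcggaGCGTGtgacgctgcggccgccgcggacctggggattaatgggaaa
NCOA3: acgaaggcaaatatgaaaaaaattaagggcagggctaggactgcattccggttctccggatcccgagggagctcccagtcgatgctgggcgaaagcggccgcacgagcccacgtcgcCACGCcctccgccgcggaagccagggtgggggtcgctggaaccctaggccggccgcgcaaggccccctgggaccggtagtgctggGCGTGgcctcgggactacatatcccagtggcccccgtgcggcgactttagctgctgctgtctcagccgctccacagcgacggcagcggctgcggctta
The PPARG window held 2 AGGTCA hexamers and 1 GCGTG core, the PPARD window 4 cores and no hexamer, and the NCOA3 window 2 cores and no hexamer. Over the 38 members with a promoter entry, 5 (13.2%) held the AGGTCA hexamer, namely RXRG, NR5A2, PPARG, NR1H3 and RARA, against 13.9% of 27305 promoters of the same length. The GCGTG core was in 17 of 38 member promoters (44.7%), against 36.3% of all promoters. None of the searched motifs contains another. The E box CACGTG was in 4 member promoters, those of AHR, PGR, NR2C1 and NR2F2 (10.5%, against 7.43% of all), and the cyclic AMP element TGACGTCA in 1, that of NR6A1 (2.63%, against 1.98% of all). These are matches of letters in a window, with no evidence of binding. In hg19, the build of the deposited tables, the gene of PPARG spans chr3:12328867-12475855, that of PPARD chr6:35310335-35395968, that of NCOA3 chr20:46130601-46285621 and that of NR4A1 chr12:52416616-52453291.

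On the per-length scale NR2F6, an orphan receptor of the COUP family, had the highest mean level, 18.7 ± 2.12 RPKM over the 15 libraries (SD). AHR followed at 14.96 ± 1.27, the coactivator NCOA3 at 14.1 ± 0.828 and the corepressor NRIP1 at 13.8 ± 1.34 RPKM, and these 3 neighbours did not differ beyond their spread. PPARG was next at 11.3 ± 1.33 RPKM, above PPARA at 7.19 ± 0.362 and PPARD at 5.37 ± 0.829 RPKM. PPARG is best known as the adipocyte receptor, whereas PPARA is the main fatty acid receptor of hepatocytes. Among RXRs, the shared partners of many receptors, RXRB averaged 8.37 ± 0.705 RPKM and RXRA 5.24 ± 0.393 RPKM. The glucocorticoid receptor NR3C1 averaged 5.09 ± 0.620 RPKM, the liver X receptors NR1H3 and NR1H2 3.61 ± 0.278 and 3.15 ± 0.398 RPKM, and the pregnane X receptor NR1I2 2.25 ± 0.365 RPKM. The constitutive androstane receptor NR1I3, a xenobiotic receptor like NR1I2, was near the bottom of the tested members at 0.332 ± 0.103 RPKM, beside RARG at 0.271 ± 0.0830 RPKM.

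Reads were too few to test 11 members. RXRG, the oestrogen-related receptor ESRRG, the oestrogen receptor ESR1 and the progesterone receptor PGR had 0 exon reads in all 15 libraries, which together allow a level of up to 0.0176 CPM by counting error alone. ESR1 had 23 intron reads over the 15 libraries and PGR had 1. ESR2, the other oestrogen receptor, had 7 exon reads in total and at most 2 in any library. The retinoic acid receptor RARB had 16 and the immediate early receptor NR4A2 had 23 exon reads in total, and no library of these 7 genes went above 0.5 CPM. The remaining 4 untested genes were detected at a low level: NR4A3 with 44 exon reads in total, the mineralocorticoid receptor NR3C2 with 52, the vitamin D receptor VDR with 68 and NR5A2, a receptor of bile acid and lipid genes, with 129. NR5A2 reached 2.28 CPM in DMSO replicate 1, against 0.148 to 1.21 CPM in the other 14 libraries.

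**Figure D1:**
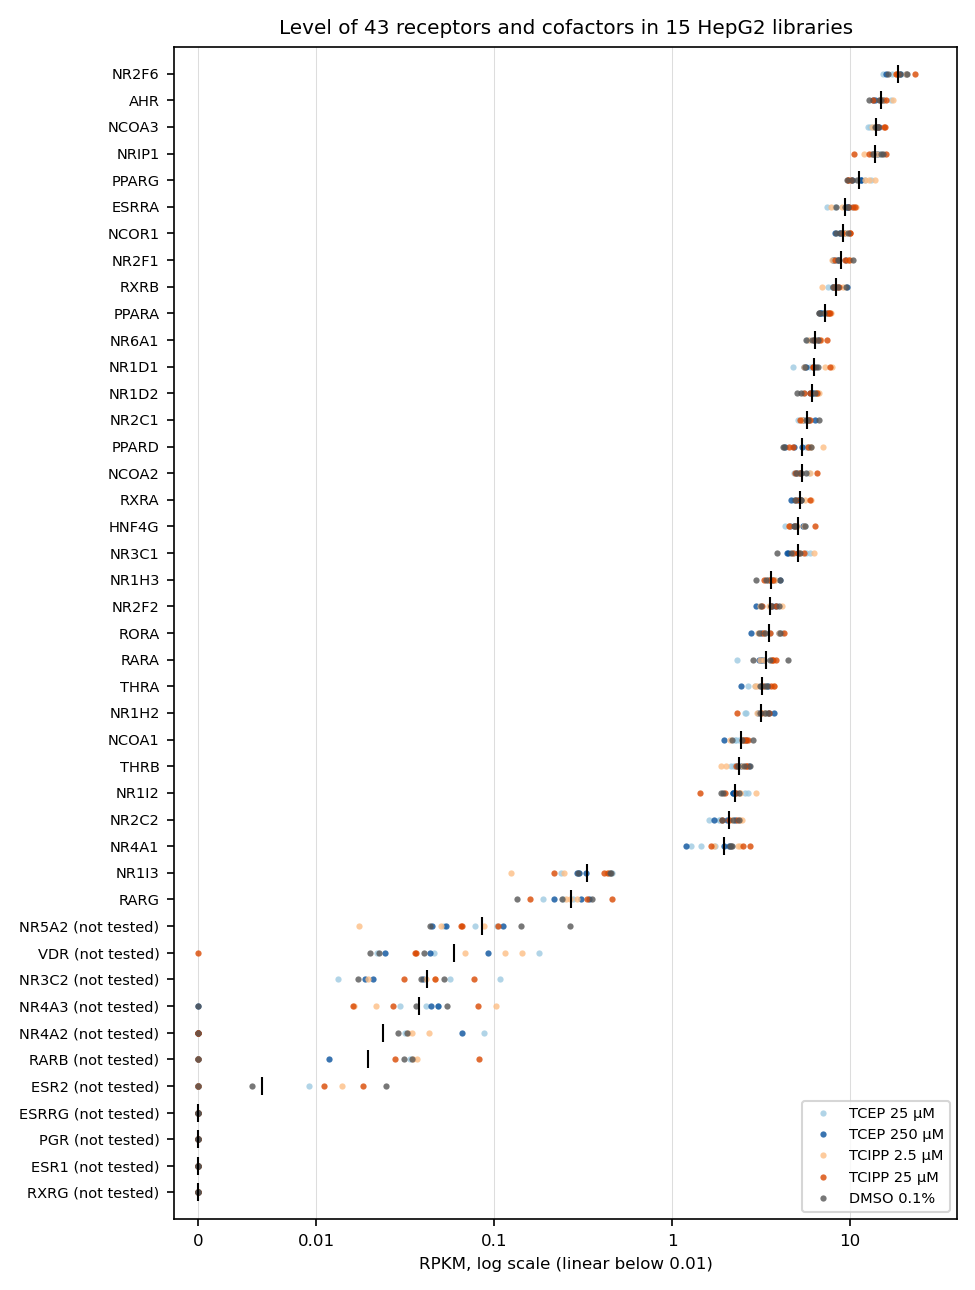
RPKM (log scale, linear below 0.01) of each of the 43 members in the 15 libraries, ordered by mean, with points coloured by group and a black bar at the mean over libraries. NR2F6 leads at a mean of 18.7 RPKM, and RXRG, ESR1, PGR and ESRRG lie at 0 in every library.

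Of the lipid receptors, PPARG had the smallest p against DMSO with TCEP at 25 µM and with TCIPP at 2.5 µM, the lower concentration of each compound. With TCIPP at 2.5 µM it had 56.4, 60.5 and 53.8 CPM, and with DMSO 43.003, 48.4 and 45.3 CPM. The groups did not overlap, and the log2 fold change was 0.32 ± 0.0809 (SE, n = 3 each; edgeR adjusted p = 0.0913). With TCEP at 25 µM PPARG had 50.2, 58.1 and 53.7 CPM, again above every DMSO library, with a log2 fold change of 0.25 ± 0.0804 (edgeR adjusted p = 0.176). At the higher concentrations PPARG had 45.4, 51.0 and 50.9 CPM with TCEP at 250 µM and 43.4, 45.0 and 43.9 CPM with TCIPP at 25 µM, and both groups overlapped DMSO (log2 fold changes 0.10 ± 0.0815 and -0.05 ± 0.0835). The test over all 5 groups gave PPARG an edgeR adjusted p of 0.122. At 2.5 µM TCIPP, DESeq2 gave PPARG an adjusted p of 0.0420, and edgeR gave 0.0499 without DMSO replicate 2.

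Between TCIPP concentrations, the PPARG libraries at 25 µM all lay below those at 2.5 µM, 44.1 ± 0.815 against 56.9 ± 3.37 CPM (SD, n = 3 each). The log2 fold change was -0.37 ± 0.0829, with an edgeR adjusted p of 0.191 without the replicate number as a block and 0.004996 with it. PPARG was the only member of 32 that passed with the block in that comparison, where 3.85% of all genes did. For TCEP at 250 over 25 µM its log2 fold change was -0.16, and the difference between the steps of the compounds did not pass for any member (edgeR adjusted p of at least 0.99991). The 4 comparisons with DMSO share its libraries, and each step shares a group with them, so these values are not independent of each other.

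PPARD, a broadly expressed fatty acid receptor, had 29.1, 33.9 and 29.1 CPM with TCIPP at 2.5 µM and 27.4, 28.6 and 28.3 CPM with TCEP at 25 µM. The DMSO libraries held 21.0, 29.6 and 20.6 CPM, so replicate 2 overlapped both groups while the other DMSO libraries lay below them. The log2 fold changes were 0.39 ± 0.129 for TCIPP (edgeR adjusted p = 0.170) and 0.27 ± 0.129 for TCEP (edgeR adjusted p = 0.331). Without DMSO replicate 2, PPARD passed at 2.5 µM TCIPP with a log2 fold change of 0.55 and an edgeR adjusted p of 0.0283. Over all fits that left out 1 library of these groups, its log2 fold change ran from 0.28 to 0.55. The edgeR adjusted p ran from 0.0283 to 0.599, and 0 to 307 of all genes passed. At the higher concentrations PPARD averaged 23.6 ± 2.52 CPM with TCEP at 250 µM and 24.8 ± 3.34 CPM with TCIPP at 25 µM, beside 23.7 ± 5.06 CPM with DMSO (SD, n = 3 each). PPARA showed another order of groups. It had 101, 99.2 and 101 CPM with TCIPP at 25 µM and 88.5, 88.8 and 94.1 CPM with DMSO, with no overlap, a log2 fold change of 0.15 ± 0.0620 and an edgeR adjusted p of 0.718. Its levels with TCEP were 97.4, 91.4 and 92.6 CPM at 25 µM and 89.7, 90.7 and 96.3 CPM at 250 µM, which overlapped DMSO. With TCIPP at 2.5 µM it had 102, 94.7 and 95.4 CPM, also above every DMSO library, with a log2 fold change of 0.11 ± 0.0614 (edgeR adjusted p = 0.458). NR1H3, the oxysterol receptor LXR alpha, had 17.7, 18.0 and 16.9 CPM with TCEP at 25 µM, 16.6, 19.2 and 17.3 CPM at 250 µM, 17.9, 17.4 and 16.5 CPM with TCIPP at 2.5 µM and 16.9, 17.6 and 15.7 CPM at 25 µM. The DMSO libraries held 14.2, 19.2 and 16.1 CPM and overlapped all of these, and no comparison with DMSO moved it by more than 0.10 on the log2 scale.

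**Figure D2:**
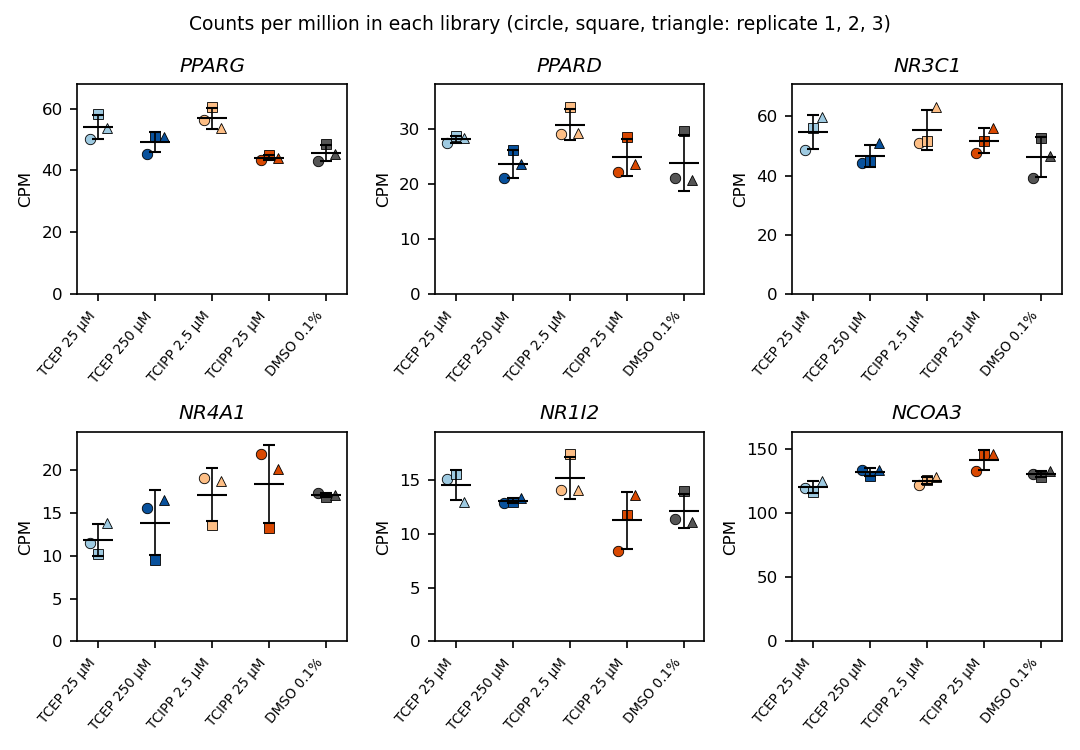
CPM of PPARG, PPARD, NR3C1, NR4A1, NR1I2 and NCOA3 in each library, by group, with the mean (bar) and SD (whiskers) of 3 libraries. All PPARG libraries at 2.5 µM TCIPP and 25 µM TCEP lie above the DMSO libraries, while in PPARD DMSO replicate 2 stands at 29.6 CPM beside 21.0 and 20.6 CPM in the other DMSO libraries.

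Of 11 PPAR target genes listed, 8 were tested and none passed in any comparison. At an unadjusted p under 0.05, 4 were higher and 1 lower with TCIPP at 2.5 µM, beside 13.9% of all genes in either direction, 2 were higher with TCEP at 25 µM, beside 15.2%, and none reached that threshold with TCEP at 250 µM or TCIPP at 25 µM. The list's median log2 fold change was 0.15 with TCIPP at 2.5 µM and 0.15 with TCEP at 25 µM, beside 0.00 over all genes in each. CPT1A, which admits long-chain fatty acids to mitochondria, averaged 80.7 ± 18.5 CPM with TCIPP at 2.5 µM, 77.6 ± 11.6 with TCEP at 25 µM and 55.5 ± 2.74 CPM with DMSO (log2 fold changes 0.55 and 0.49, edgeR adjusted p = 0.124 and 0.170). VNN1, a pantetheinase, and ACSL1, an acyl-CoA synthetase, had log2 fold changes of opposite sign at 2.5 µM TCIPP, 0.62 and -0.26. PDK4 and CYP4A11, frequent readouts of PPARA in liver, were too low to test. Of 8 LXR targets 7 were tested and none passed. SCD, the fatty acid desaturase, averaged 1860 ± 57.3 CPM with TCIPP at 25 µM and 1680 ± 103 CPM with DMSO (log2 fold change 0.14, edgeR adjusted p = 0.765).

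Among the xenobiotic receptors, AHR, the receptor for dioxins and polycyclic aromatics, had 111, 111 and 124 CPM with TCEP at 25 µM, 97.8, 101 and 111 CPM at 250 µM, 111, 108 and 128 CPM with TCIPP at 2.5 µM and 97.9, 108 and 117 CPM at 25 µM. The DMSO libraries held 94.1, 109 and 107 CPM. Only TCEP at 25 µM stood clear of DMSO, with a log2 fold change of 0.17 ± 0.0827 (edgeR adjusted p = 0.346), and TCEP at 250 over 25 µM gave -0.18 ± 0.0829 (edgeR adjusted p = 0.687, and 0.114 with the replicate block). Of 9 genes in the AHR list 5 were tested and none passed. CYP1A1, its classical target, averaged 3.64 ± 1.07 CPM with TCEP at 25 µM and 6.41 ± 2.00 CPM with DMSO (log2 fold change -0.81, edgeR adjusted p = 0.339). NQO1, a quinone reductase shared with the oxidative stress response, averaged 679 ± 67.5 CPM with TCIPP at 2.5 µM and 815 ± 76.5 CPM with DMSO (log2 fold change -0.26, edgeR adjusted p = 0.170). AHRR, CYP1A2, CYP1B1 and ALDH3A1 were too low to test.

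NR1I2, the receptor for many drugs, had 14.1, 17.4 and 14.1 CPM with TCIPP at 2.5 µM, 8.42, 11.8 and 13.6 CPM with TCIPP at 25 µM, and 11.4, 13.97 and 11.1 CPM with DMSO. The libraries at 2.5 µM lay above all others of these groups, though the lowest exceeded the highest DMSO library by little. The log2 fold change of TCIPP at 25 over 2.5 µM was -0.43 ± 0.157 (edgeR adjusted p = 0.338, and 0.121 with the replicate block), and that of 2.5 µM over DMSO was 0.33 ± 0.149 (edgeR adjusted p = 0.345). With TCEP NR1I2 had 15.1, 15.6 and 13.0 CPM at 25 µM and 12.9, 13.0 and 13.3 CPM at 250 µM. NR1I3 had 0.853, 1.66 and 1.09 CPM with TCEP at 25 µM, 1.09, 1.06 and 1.19 CPM at 250 µM, 1.55, 0.443 and 0.896 CPM with TCIPP at 2.5 µM and 1.57, 1.49 and 0.787 CPM at 25 µM. The DMSO libraries held 1.64, 1.62 and 1.07 CPM, within the range of the treated libraries. NR1I3 had 61.0% of its gene reads in introns and 66.3% of its exon reads unique to 1 place. Its interval with TCIPP at 2.5 µM against DMSO ran from -1.35 to 0.28 on the log2 scale, too wide to show a change of the size seen for PPARG.

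Of 11 targets of NR1I2 and NR1I3, 7 were tested and none passed. CYP3A4, CYP2B6 and CYP2C8, adult drug-metabolising P450 genes, were too low to test, and CYP3A4 had at most 0.885 CPM. CYP3A7, the fetal family member, averaged 4.93 ± 0.847 CPM with TCEP at 25 µM, 5.02 ± 1.80 with TCIPP at 2.5 µM and 8.72 ± 2.87 CPM with DMSO (log2 fold changes -0.86 and -0.89, edgeR adjusted p = 0.184 and 0.170). Reads of CYP3A genes may be shared between near-identical copies. ABCC2, the bile canalicular export pump, averaged 700.5 ± 33.1 CPM with TCIPP at 25 µM and 577 ± 7.10 CPM with TCEP at 25 µM (log2 fold change 0.27, edgeR adjusted p = 0.0771).

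Of the class of 7 steroid and oestrogen-related receptors, only NR3C1 and ESRRA were tested. ESRRA is an oestrogen-related receptor of mitochondrial genes that binds no oestrogen. It averaged 9.41 ± 1.03 RPKM over the libraries (SD), above NR3C1 at 5.09 ± 0.620 RPKM. NR3C1 had 48.5, 56.2 and 59.8 CPM with TCEP at 25 µM, 51.2, 51.8 and 63.2 CPM with TCIPP at 2.5 µM and 39.2, 52.6 and 46.8 CPM with DMSO. All groups overlapped, and the log2 fold changes were 0.25 ± 0.110 for TCEP (edgeR adjusted p = 0.280) and 0.28 ± 0.110 for TCIPP (edgeR adjusted p = 0.265). At the higher concentrations it had 44.3, 44.8 and 51.1 CPM with TCEP at 250 µM and 47.8, 51.6 and 56.2 CPM with TCIPP at 25 µM. TCEP at 250 over 25 µM gave -0.24 ± 0.110 (edgeR adjusted p = 0.680, and 0.124 with the replicate block). With the block, 0 of 32 members passed in that comparison, where 1.47% of all genes did. With the block, 6 of 32 members had an unadjusted p under 0.05 in that comparison, against 3 without it, while 13.1% of all genes did with the block and 7.16% without.

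Of 9 glucocorticoid receptor targets 8 were tested, and only DUSP1, a phosphatase of mitogen-activated kinases, passed, with TCIPP at 2.5 µM. DUSP1 averaged 117 ± 4.39 CPM in these cells and 71.0 ± 9.33 CPM with DMSO (log2 fold change 0.73 ± 0.116, edgeR adjusted p = 0.0312). In a check chosen after seeing the data, the call was lost without DMSO replicate 1 (edgeR adjusted p = 0.0688), DMSO replicate 3 (0.188), TCIPP replicate 2 (0.235) or TCIPP replicate 3 (0.0936), while the log2 fold change stayed between 0.64 and 0.83 when any of the 6 libraries was left out. At 2.5 µM TCIPP it also passed with DESeq2 (adjusted p = 1.4e-05). It averaged 93.5 ± 9.13 and 86.9 ± 9.92 CPM with TCEP at 25 and 250 µM and 103 ± 14.8 CPM with TCIPP at 25 µM, where it did not pass in the main edgeR fit. At 25 µM, DESeq2 passed it for TCEP (adjusted p = 0.0475) and TCIPP (0.0133). So did edgeR without the low-count filter and with the replicate block. With unique exon reads edgeR gave adjusted p-values of 0.415 for TCEP and 0.836 for TCIPP at 25 µM. At 250 µM TCEP it passed in no alternative. DUSP1 is also an immediate early gene that many stimuli induce. PER1, a clock gene with glucocorticoid elements, averaged 7.89 ± 0.908 CPM with TCEP at 25 µM and 11.2 ± 1.04 CPM with DMSO (log2 fold change -0.48, edgeR adjusted p = 0.196). TSC22D3, the leucine zipper protein GILZ, was close to the filter, at 0.595 ± 0.133 CPM with TCEP at 25 µM and 1.13 ± 0.326 CPM with DMSO (edgeR adjusted p = 0.284). The median log2 fold change of the list was 0.01 with TCIPP at 2.5 µM and 0.04 with TCEP at 25 µM.

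Although ESR1 had no exon read, 4 of 5 oestrogen receptor targets listed were tested, and none passed. TFF1, a secreted mucosal peptide, averaged 12.1 ± 4.36 CPM with TCIPP at 2.5 µM, 9.63 ± 2.68 with TCEP at 25 µM and 5.05 ± 1.62 CPM with DMSO. Its log2 fold changes were 1.31 (edgeR adjusted p = 0.0732) and 0.99 (edgeR adjusted p = 0.169). XBP1, which also serves the unfolded protein response, had -0.24 and -0.27 in the same comparisons. GREB1 averaged 146 ± 14.04 CPM with TCIPP at 25 µM and 127 ± 7.14 CPM with TCEP at 25 µM (log2 fold change 0.19, edgeR adjusted p = 0.154).

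Of the 9 retinoid, thyroid and vitamin D receptors, 6 were tested. THRB, the main hepatic thyroid hormone receptor, had 23.5, 17.7 and 19.2 CPM with TCIPP at 2.5 µM, 21.3, 20.3 and 21.2 CPM with TCEP at 25 µM and 26.2, 22.5 and 24.3 CPM with DMSO. All TCEP libraries were below DMSO, whereas replicate 1 of TCIPP overlapped it. The log2 fold changes were -0.28 ± 0.103 for TCIPP (edgeR adjusted p = 0.226) and -0.21 ± 0.102 for TCEP (edgeR adjusted p = 0.342). THRA, the other thyroid hormone receptor, had 26.5, 18.6 and 24.1 CPM with TCEP at 250 µM and 23.9, 25.3 and 26.0 CPM with DMSO, a log2 fold change of -0.13 ± 0.124 (edgeR adjusted p = 0.987). RARA, a retinoic acid receptor, had 13.3, 14.03 and 13.6 CPM with TCEP at 250 µM and 15.3, 19.3 and 12.3 CPM with DMSO, and these overlapped (log2 fold change -0.18 ± 0.148). That value was -0.01 without DMSO replicate 2 and -0.36 without DMSO replicate 3. RXRA and RXRB did not exceed 0.13 in either direction on the log2 scale in any comparison.

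Of 8 listed retinoic acid, vitamin D and thyroid hormone targets, 5 were tested and none passed. DHRS3, a retinaldehyde reductase induced by retinoic acid, was the gene of this list with the smallest p. It averaged 47.7 ± 1.90 and 52.7 ± 3.18 CPM with TCEP at 25 and 250 µM, 51.6 ± 1.93 and 52.7 ± 2.98 CPM with TCIPP at 2.5 and 25 µM, and 41.4 ± 4.00 CPM with DMSO. The log2 fold changes were 0.22, 0.34, 0.33 and 0.34 in that order of groups, with edgeR adjusted p-values of 0.211, 0.364, 0.0806 and 0.224. CYP24A1, the vitamin D catabolic enzyme, averaged 77.3 ± 22.6 CPM with TCIPP at 25 µM and 53.9 ± 8.63 CPM with DMSO (log2 fold change 0.52, edgeR adjusted p = 0.710), although its receptor VDR was under the filter. DIO1, the hepatic deiodinase and a thyroid hormone target, averaged 9.52 ± 1.28 CPM with TCIPP at 2.5 µM and 11.9 ± 1.23 CPM with DMSO (log2 fold change -0.29, edgeR adjusted p = 0.376).

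The 3 clock receptors NR1D1, NR1D2 and RORA were all tested. NR1D1 and NR1D2 (REV-ERB alpha and beta) repress, and RORA activates, clock and lipid genes through the same DNA element. NR1D2 had 42.3, 40.7 and 41.5 CPM with TCIPP at 2.5 µM and 34.0, 32.2 and 40.7 CPM with DMSO. DMSO replicate 3 reached just under the lowest treated library, and the log2 fold change was 0.21 ± 0.0949 (edgeR adjusted p = 0.341). NR1D1 ran from 14.5 to 23.8 CPM over the libraries, with group means of 17.0 to 20.8 CPM, and its gene overlaps THRA by 1081 bases at chr17:38249040-38250120 (hg19) on the opposite strand. Strand use in the counting was not given in the sources used here, and their shared reads cannot be told apart. Only 25.6% of RORA's exon reads were unique to 1 place, so its level is uncertain. Of 7 target genes of these receptors all were tested and none passed. NPAS2 averaged 74.6 ± 5.20 CPM with TCIPP at 25 µM and 58.2 ± 4.89 CPM with TCEP at 25 µM (log2 fold change 0.35, edgeR adjusted p = 0.0771). G6PC, the last enzyme of glucose release, averaged 41.8 ± 9.61 CPM with TCIPP at 2.5 µM and 28.2 ± 10.5 CPM with DMSO (log2 fold change 0.59, edgeR adjusted p = 0.184).

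Of 11 orphan receptors 8 were tested. NR4A1, an immediate early receptor that acts without a known ligand, had 11.5, 10.2 and 13.9 CPM with TCEP at 25 µM, 15.6, 9.50 and 16.5 CPM with TCEP at 250 µM, and 17.3, 16.8 and 17.2 CPM with DMSO. All 6 TCEP libraries lay below the DMSO libraries. The log2 fold changes were -0.51 ± 0.188 at 25 µM (edgeR adjusted p = 0.209) and -0.27 ± 0.187 at 250 µM (edgeR adjusted p = 0.987). At 250 µM the value was -0.10 without TCEP replicate 2 and -0.45 without TCEP replicate 3. With TCIPP NR4A1 had 19.1, 13.6 and 18.8 CPM at 2.5 µM and 21.9, 13.3 and 20.1 CPM at 25 µM, on both sides of DMSO. Only 72.7% of its exon reads were unique to 1 place.

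NR2C2, the testicular receptor TR4, had 11.8, 10.4 and 12.0 CPM with TCEP at 25 µM, 14.5, 11.01 and 13.1 CPM at 250 µM, and 14.3, 12.3 and 15.3 CPM with DMSO. At 25 µM all libraries were below DMSO, with a log2 fold change of -0.30 ± 0.124 (edgeR adjusted p = 0.259), and 71.2% of the gene's reads fell in introns. NR6A1, the germ cell nuclear factor, had 57.6, 49.1 and 53.4 CPM with TCIPP at 25 µM and 51.7, 44.3 and 47.9 CPM with DMSO, which overlapped (log2 fold change 0.16 ± 0.0832, edgeR adjusted p = 0.843). NR2F6, the member with the highest RPKM, had 68.4, 54.4 and 54.0 CPM with TCIPP at 25 µM and 47.9, 61.1 and 56.2 CPM with DMSO, and its log2 fold changes against DMSO lay between -0.12 and 0.10. NR2F1 and NR2F2, the other COUP receptors, had log2 fold changes against DMSO of -0.17 to 0.00 and -0.02 to 0.04. HNF4G, a relative of the hepatocyte factor HNF4A, stayed within -0.06 and 0.03. NR2C1, the remaining tested orphan receptor, had 36.3, 38.3 and 40.3 CPM with TCEP at 25 µM. Its DMSO libraries held 47.9, 40.5 and 41.8 CPM, with no overlap (log2 fold change -0.17 ± 0.0875, edgeR adjusted p = 0.370). The other treated groups overlapped DMSO for NR2C1.

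The 5 cofactors were all tested. NCOA3, a histone acetyltransferase coactivator, had 119.8, 116 and 125 CPM with TCEP at 25 µM, 134, 129 and 134 CPM with TCEP at 250 µM, 122, 126 and 128 CPM with TCIPP at 2.5 µM and 132, 145 and 146 CPM with TCIPP at 25 µM. The DMSO libraries held 131, 128 and 133 CPM, above all TCEP libraries at 25 µM. TCIPP at 25 over 2.5 µM gave a log2 fold change of 0.16 ± 0.0590, with no overlap (edgeR adjusted p = 0.338, and 0.0997 with the replicate block). NRIP1, a ligand-dependent corepressor of fat oxidation genes, had 91.4, 111 and 141 CPM with TCIPP at 25 µM and 118, 133 and 129.7 CPM with DMSO. These TCIPP libraries spread more widely than any other group, and the log2 fold change was -0.15 ± 0.106 (edgeR adjusted p = 0.898), with 65.1% of the exon reads unique to 1 place. NCOR1, the corepressor of unliganded receptors, had 152, 169 and 169.8 CPM with TCIPP at 25 µM and 165, 149 and 140.3 CPM with DMSO (log2 fold change 0.11 ± 0.0727, edgeR adjusted p = 0.884). NCOA1 and NCOA2 stayed between -0.10 and 0.07 against DMSO.

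Of 18 further cofactors listed, 17 were tested and none passed. At the shared 25 µM, TCIPP against TCEP, 6 were higher and 1 lower at an unadjusted p under 0.05, beside 18.1% of all genes in either direction. MED1, the Mediator subunit that contacts nuclear receptors, averaged 143 ± 5.51 CPM with TCIPP and 119 ± 8.52 CPM with TCEP (log2 fold change 0.26, edgeR adjusted p = 0.0988). PPARGC1A, a coactivator of oxidative metabolism, averaged 75.5 ± 5.57 and 63.4 ± 4.20 CPM in the same groups (log2 fold change 0.24, edgeR adjusted p = 0.110).

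Counts of members at an unadjusted p under 0.05 were close to those of all genes. With TCEP at 25 µM against DMSO these were 4 of 32 members, beside 15.2% of all genes, and with TCEP at 250 µM 0 of 32, beside 5.20%. With TCIPP at 2.5 µM they were 6 of 32, beside 13.9%, and with TCIPP at 25 µM 1 of 32 (PPARA), beside 6.36%. For TCEP at 250 over 25 µM they were 3 of 32, beside 7.16%, and for TCIPP at 25 over 2.5 µM 5 of 32, beside 10.8%. The median absolute log2 fold change of the members against DMSO was 0.13 with TCEP at 25 µM, 0.07 at 250 µM, 0.07 with TCIPP at 2.5 µM and 0.10 at 25 µM, beside 0.12, 0.09, 0.12 and 0.09 over all genes in the same order. The direction was mostly positive with TCIPP at 25 µM, where 23 of 32 members had a positive log2 fold change, beside 49.2% of all genes, and mostly negative with TCEP at 25 µM, where 9 of 32 were positive, beside 50.1%. With TCEP at 250 µM 11 of 32 were positive, beside 50.6%, and with TCIPP at 2.5 µM 19 of 32, beside 48.9%. For the TCEP and TCIPP concentration steps 16 and 18 of 32 were positive, beside 50.3% and 49.6%.

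**Figure D3:**
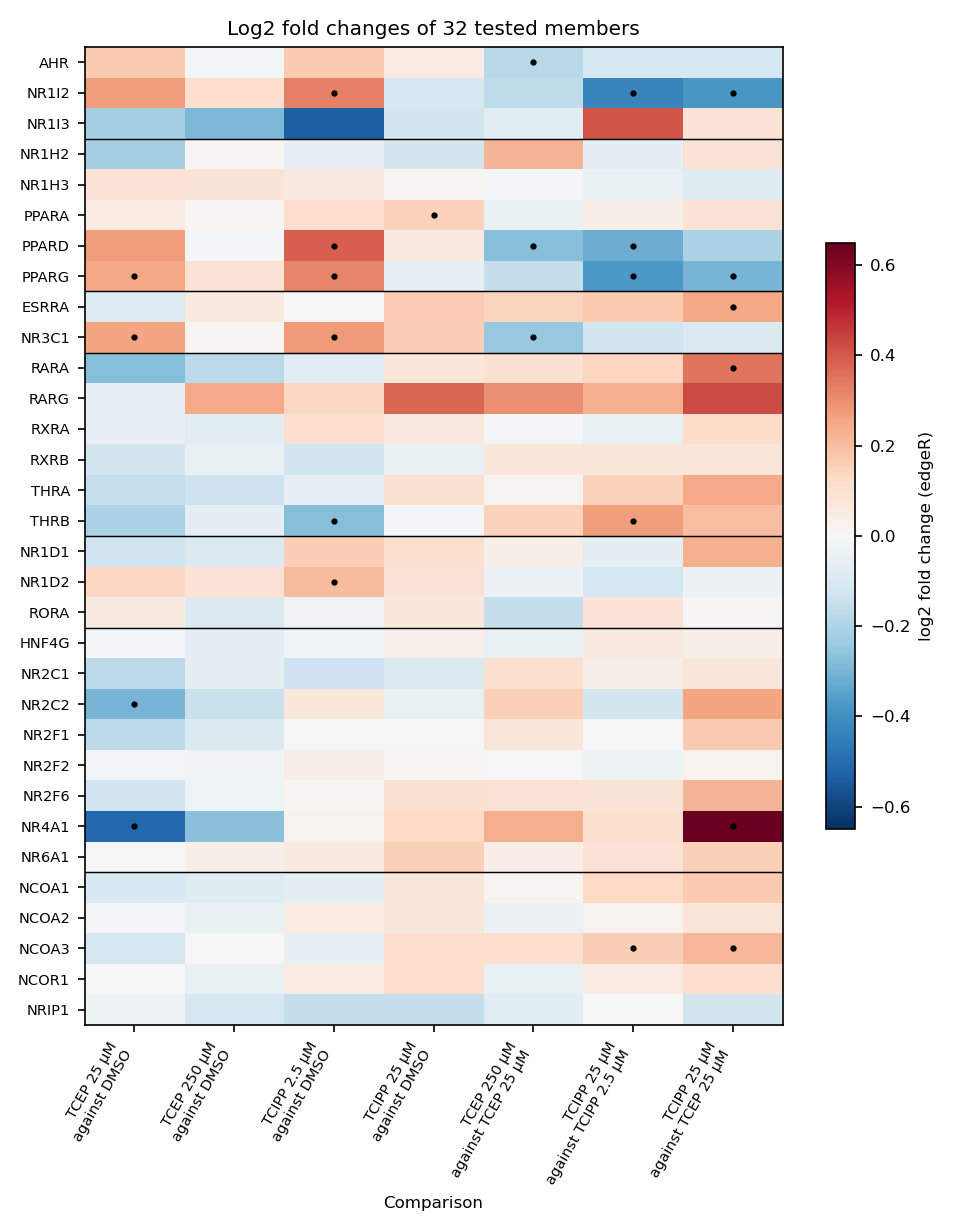
Log2 fold changes (edgeR; colour scale in log2 units) of the 32 tested members in 7 comparisons, with rows grouped by class and black dots at an unadjusted p under 0.05. PPARG is positive against DMSO at 2.5 µM TCIPP (0.32) and 25 µM TCEP (0.25) and negative for 25 over 2.5 µM TCIPP (-0.37), and no cell has an adjusted p under 0.05.

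The 2 compounds were given at 1 common concentration, 25 µM, which is the higher one of TCIPP and the lower one of TCEP. There 6 of 32 members had an unadjusted p under 0.05, beside 18.1% of all genes. NCOA3 averaged 141 ± 7.60 CPM with TCIPP and 120.4 ± 4.42 CPM with TCEP (SD, n = 3 each), with no overlap. Its log2 fold change was 0.22 ± 0.0588, with a 95% interval of 0.09 to 0.34 (edgeR adjusted p = 0.0988, and 0.0162 with the replicate block). PPARG averaged 44.1 ± 0.815 and 54.0 ± 3.95 CPM in the same groups, again with no overlap, a log2 fold change of -0.30 ± 0.0826 and an interval of -0.48 to -0.13 (edgeR adjusted p = 0.0988, and 0.0112 with the block). NR4A1 averaged 18.4 ± 4.56 CPM with TCIPP and 11.8 ± 1.87 CPM with TCEP. Replicate 2 of TCIPP, at 13.3 CPM, overlapped the highest TCEP library. The log2 fold change of NR4A1 was 0.64 ± 0.193 with an interval of 0.23 to 1.05 (edgeR adjusted p = 0.115, and 0.00788 with the block).

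With the replicate block, NCOA3 and NR4A1 passed as higher and PPARG as lower with TCIPP than with TCEP. These were 3 of 32 members, a share close to the 8.75% of all genes that passed. The block moved the number of members at an unadjusted p under 0.05 to 11 of 32, beside 25.3% of all genes. Without the block, DESeq2 passed NCOA3 (adjusted p = 0.0323) and PPARG (adjusted p = 0.0492), and edgeR passed NR4A1 without TCIPP replicate 2 (adjusted p = 0.0474). With 1 library left out, the edgeR adjusted p of NR4A1 reached up to 0.453, and 0 to 208 of all genes passed. NR1I2 had a log2 fold change of -0.38 ± 0.156 (edgeR adjusted p = 0.216), RARA 0.35 ± 0.151 (edgeR adjusted p = 0.243) and ESRRA 0.25 ± 0.115 (edgeR adjusted p = 0.258). RARA had 15.6, 16.6 and 16.1 CPM with TCIPP and 13.6, 9.95 and 13.9 CPM with TCEP, and these libraries did not overlap. For the other receptors the intervals bound the difference: PPARA from -0.04 to 0.22, AHR from -0.29 to 0.06, NR3C1 from -0.33 to 0.14, NR1H3 from -0.31 to 0.15 and NR1I3 from -0.76 to 0.94. Of the 32 members 24 had a positive log2 fold change, beside 49.5% of all genes.

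**Figure D4:**
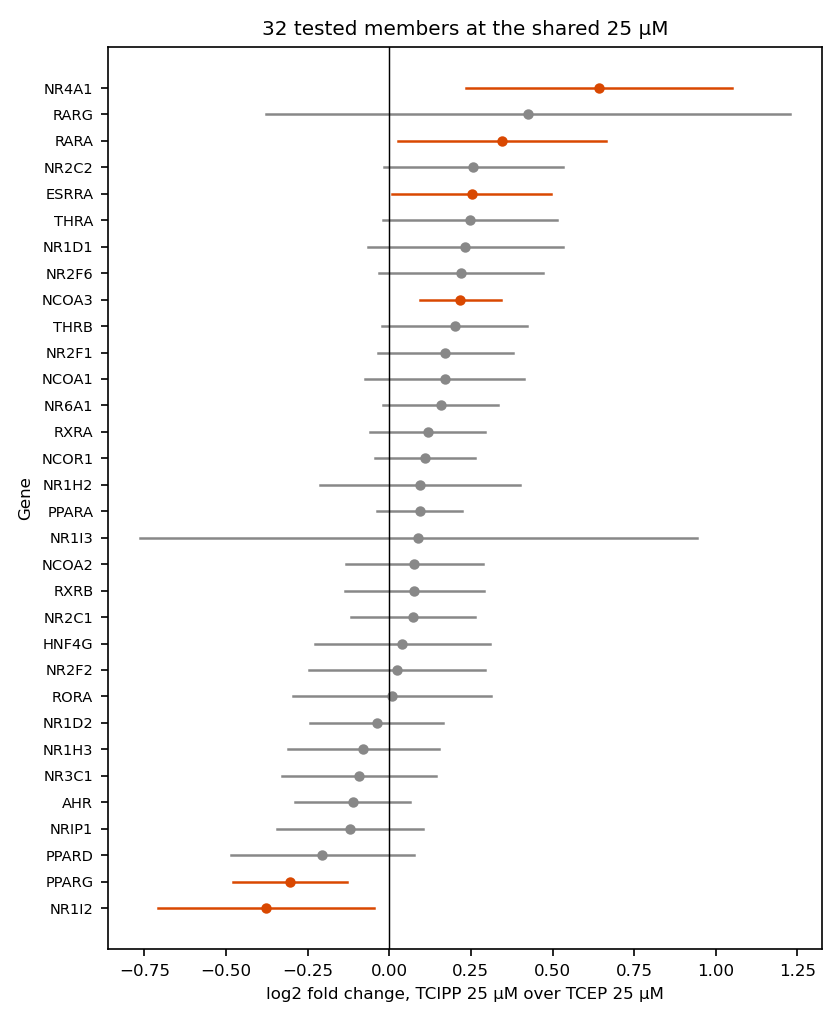
Log2 fold change of TCIPP over TCEP, both at 25 µM, for the 32 tested members (points) with 95% intervals (lines) from edgeR without the replicate block. Members in orange (NR4A1, RARA, ESRRA, NCOA3, PPARG and NR1I2) have an unadjusted p under 0.05, and the widest intervals belong to the low-level NR1I3 and RARG.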

How the data were processed

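Per the labels' protocols, poly-A RNA libraries were made with a stranded kit and sequenced as 50-base read pairs. Per the design text of the series, the authors used CLC Genomics Workbench for mapping and counting (version not given in the sources used here), and processing notes of the submitters name hg19 (GRCh37). The deposited tables hold raw counts of total and unique exon reads and of intron reads, exon length and RPKM, per the file headers. Within each library, the authors' deposited RPKM was proportional to exon reads over exon length for 100% of genes with exon reads (relative tolerance 0.0001). This check left each library's scale free, and the read total behind the RPKM was not recomputed. The deposited normalized values were not used, since the compounds were normalized in separate sets. Strand use in counting was not given in the sources used here. Gene starts were moved to a 1-based scale.

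Members were matched by gene name. Of 57773 genes, 12567 passed edgeR's filter on low counts. Total exon reads of all 15 libraries were fitted together with TMM scaling and edgeR's quasi-likelihood test (R 4.3.3, edgeR 4.0.16), with Benjamini-Hochberg adjustment over all tested genes within each of 7 comparisons and a test over the 5 groups. A gene passed at an adjusted p under 0.05. Standard errors are the absolute log2 fold change over the square root of F. The code was tested on simulated data. Alternatives were DESeq2 (1.42.0), its size factors, no low-count filter, a replicate block, only the groups compared, unique exon reads and leaving out each library. Reads carry no molecular identifiers, so floors, set at 3 reads, cover counting error only.

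Replicate numbers come from the sample titles, and no label ties a number to a shared day or batch. Deviations from the group means were correlated over genes between same-numbered libraries. They gave 0.177 to 0.297 in the 3 comparisons between treated groups, where every pair exceeded 0.1. By that set minimum these were read as paired. Libraries of different numbers were not correlated, so pairing is not established. The fit with the block held all 15 libraries, so it also blocked the DMSO libraries by number. Against DMSO the correlations were 0.0164 to 0.158, all positive. Some of these pairs exceeded 0.1, but in no comparison with DMSO did every pair do so. These comparisons were therefore not read as paired, and their fit with the block is given only as an alternative. Whether same-numbered libraries share more than a number with DMSO was not tested.

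Members, pathway lists and tests were chosen with earlier results of these data known. Every member is accounted for by level and filter. Library values are given for the 5 members with the smallest p in each comparison with DMSO, the 3 in each other comparison, the 3 tested members of highest mean RPKM and AHR, ESR1, NR1I2, NR1I3, PPARA, NR1H3, NR3C1, NR4A1 and NRIP1. Of 86 list genes 68 were tested, and up to 3 per list with the smallest p were named, except some genes not reported here. Promoters came from RefSeq (GRCh38.p14), matched for 38 of 43 members, and served only for letters and windows.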

Additional observations from a re-analysis of the deposited data

How the results depend on the processing

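Of 348 alternatives to 29 fold changes, 0 reversed and 23 passed the threshold where the main test did not. The numbers of members passing, 0 in the main fit throughout, moved in 16 of 104 alternatives, and the cause was not tested. Calls over all genes also rose with DESeq2, without the filter and with the block, as listed further below. Without the filter more genes were tested than in the main fit, and DESeq2 started from every gene with a read. Shares of all genes were not computed for these 2 alternatives, so their member counts have no background share beside them. Without the low-count filter, 1 member passed with TCEP at 25 µM against DMSO (NR4A1, edgeR adjusted p = 0.0187), 1 with TCIPP at 2.5 µM against DMSO (PPARD, 0.0432), 1 for TCIPP at 25 over 2.5 µM (PPARG, 0.0249), 1 for TCIPP over TCEP at 25 µM (NR4A1, 0.00171) and 3 over the 5 groups (NR4A1, PPARD and PPARG). With DESeq2, 1 passed with TCIPP at 2.5 µM against DMSO (PPARG, adjusted p = 0.0420), 1 for TCIPP at 25 over 2.5 µM (PPARG, 0.0223), 2 for TCIPP over TCEP at 25 µM (NCOA3 and PPARG) and 1 over the 5 groups (PPARG, 0.0132).

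With the replicate block, 4 members passed with TCEP at 25 µM against DMSO (PPARG, NR4A1, NR3C1 and PPARD, edgeR adjusted p = 0.0214, 0.0192, 0.0365 and 0.0485), 4 with TCIPP at 2.5 µM against DMSO (PPARG, PPARD, THRB and NR3C1, 0.00472, 0.00728, 0.0356 and 0.0260), 1 for TCIPP at 25 over 2.5 µM, 3 for TCIPP over TCEP at 25 µM and 4 over the 5 groups (PPARG, PPARD, NR4A1 and NR3C1). With the block, 0 passed with TCEP at 250 µM or TCIPP at 25 µM against DMSO and for the TCEP step, where the block changed no member's call. Of all genes, 8.25% passed with the block with TCEP at 25 µM against DMSO and 7.49% with TCIPP at 2.5 µM. Leaving out 1 library gave 0 to 2 members with TCIPP at 2.5 µM against DMSO and 0 to 1 for TCIPP over TCEP at 25 µM, and 0 in the other comparisons.

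Leaving out 1 library moved some of the small fold changes by over 1.5 times without turning them. At 250 µM TCEP against DMSO, RARA was -0.01 without DMSO replicate 2 and -0.36 without DMSO replicate 3, NR4A1 -0.10 and -0.45 without TCEP replicates 2 and 3, THRA -0.22 and -0.02 without TCEP replicates 1 and 2, and NR2C2 -0.07 without TCEP replicate 2, -0.23 without DMSO replicate 2 and -0.06 without DMSO replicate 3, while PPARG ran from 0.06 (without TCEP replicate 3) to 0.15 (without TCEP replicate 1). At 25 µM TCIPP, NRIP1 was -0.01 and -0.33 without TCIPP replicates 1 and 3, NCOR1 0.18 and 0.05 without DMSO replicates 1 and 3, and NR6A1 0.09 without TCIPP replicate 1 and 0.10 without DMSO replicate 2. At 25 µM TCEP, PPARD was 0.44 and 0.16 without DMSO replicates 2 and 3, and NR3C1 0.16 without DMSO replicate 1. At 2.5 µM TCIPP, NR1D2 was 0.13 and 0.33 without DMSO replicates 2 and 3, and NR3C1 0.17 without TCIPP replicate 3. For TCIPP at 25 over 2.5 µM, NR1I2 was -0.25 without replicate 1 at 25 µM.

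Counts over all genes moved more than those of the members. Listed as TCEP at 25 and 250 µM against DMSO, the TCEP step, TCIPP at 2.5 and 25 µM against DMSO, the TCIPP step and TCIPP over TCEP, they were 0, 0, 0, 12, 1, 0 and 5 in the main fit. They were 144, 14, 14, 228, 32, 72 and 330 with DESeq2, 618, 50, 161, 553, 80, 345 and 756 without the filter, and 1037, 34, 185, 941, 47, 484 and 1100 with the block. Fitting only the groups compared gave 135, 0, 0, 23, 0, 0 and 0, and unique exon reads gave 2, 0, 0, 122, 1, 0 and 6. Over the 5 groups 12 genes passed in the main fit, 1 with DESeq2's size factors, 40 with unique reads, 393 with DESeq2, 990 without the filter and 1107 with the block. Leaving out 1 library gave 0 to 29, 0 to 1, 0 to 0, 0 to 307, 0 to 5, 0 to 0 and 0 to 208 in the order above, and 0 to 84 over the 5 groups. Depth limits NR1I3, RARG and the untested members.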

Other observations

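Some members ranked the same way by replicate number in every group. PPARD and PPARG were highest in replicate 2 in all 5 groups, and NR4A1, RXRB and THRB were lowest in replicate 2 in all 5. NR3C1 was lowest and THRB highest in replicate 1 in all 5 groups, and HNF4G and RORA were highest in replicate 3. NR4A1 in replicate 2 was at 10.2 and 9.50 CPM with TCEP at 25 and 250 µM, 13.6 and 13.3 CPM with TCIPP at 2.5 and 25 µM, and 16.8 CPM with DMSO. These genes were singled out after their values were seen, no test was made, and the labels do not say what a replicate number shares. Replicate 3 had the most exon reads with TCEP at 25 and 250 µM, TCIPP at 2.5 µM and DMSO (14.7, 21.0, 26.8 and 21.4 megareads). With TCIPP at 25 µM it had 8.89 megareads, beside 8.91 in replicate 1. Whether depth bears on the ranking was not tested. How many of all tested genes rank the same way was not counted, so this pattern cannot be called particular to the members.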
